A study of Mus musculus with 72 samples.

Results

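The genes described here encode 9 factors of nonsense-mediated mRNA decay, namely Upf1, Upf2, Upf3a, Upf3b, Smg1, Smg5, Smg6, Smg8 and Smg9. They were listed by symbol under a rule that uses no measured value, with earlier results of these data known, and are 9 of the 51826 genes in the count files. All 9 were counted in every library and passed the filter on low counts, and each held at least 5349 T positions in exon reads of every library used.

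The study followed newly made mRNA through E14TG2a cells, a line of mouse embryonic stem cells grown in 2i and LIF medium, which keeps them undifferentiated. Cells were given 4-thiouridine (4sU), a nucleoside that cells build into new RNA and that, once alkylated, is sequenced as C. T-to-C conversions therefore mark molecules made after its addition. Each culture was split by detergent into a cytosolic, a membrane and a nuclear fraction, with a part kept as whole cells, and poly(A) RNA was sequenced. The aim was to measure how fast mRNA is made, exported and degraded in each compartment. Labeling lasted 15, 20 and 30 min in replicates 1 and 2, while replicates 3 and 4 had 20, 40, 60 and 120 min. Replicates 5 and 6 had 60 and 120 min only. Each time was sampled in all 4 fractions. By the labels, 4sU was at 500 µM up to 40 min and at 100 µM in all libraries labeled longer. The methods of the study name both doses for labeling of 60 min and longer, so that the dose of replicates 3 and 4 at 60 and 120 min is not settled by these sources. The paper left out samples labeled at 500 µM for more than 60 min. It reports that the conversion rate rose with time at 500 µM and stayed constant at 100 µM. The conversion rate in whole cells at 60 min was 0.0713 and 0.0790 in replicates 3 and 4 and 0.0292 and 0.0399 in replicates 5 and 6. In replicates 3 and 4 it was 0.0296 and 0.0316 at 20 min and 0.0950 and 0.118 at 120 min. Replicates 5 and 6 had 0.0391 and 0.0374 at 120 min. Time and dose therefore differ between the pairs of replicates and cannot be told apart from them. All groups come from 1 cell line, and libraries without 4sU were not analysed here. Libraries of 120 min in replicates 3 and 4, 8 in number, entered neither the comparisons of fractions nor those of shares, which used 64 libraries, 16 for each fraction. Whole-cell libraries of these cultures served in the comparison of 120 with 20 min. They also entered the joint fit of the 18 whole-cell libraries and the marker sums.

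Nonsense-mediated decay removes mRNAs on which translation ends too early. Upf1, an RNA helicase, acts where the ribosome stops, and Upf2 links it to Upf3a or Upf3b, which bind the exon junction complex that splicing leaves on the mRNA. The kinase Smg1, held in check by its partners Smg8 and Smg9, phosphorylates Upf1, and phosphorylated Upf1 recruits the adaptor Smg5 and the endonuclease Smg6. The mRNAs of several of these factors are known to be targets of the pathway themselves, and Smg6 is known to be needed for mouse embryonic stem cells to differentiate.

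The end of the coding sequence is shown for transcripts in which the stop codon and the last exon junction differ in order, since a junction well downstream of a stop is the feature that the pathway reads. Sequences are from GENCODE M21 on GRCm38, with the last coding bases in lower case and the stop codon in capitals.
Upf1-201: ggcggggtcaccgggctgtcccagtacTAG
Smg5-201: ttctacaggcagtggaaggagattggtTGA
Smg5-202: gtggaagccatgtattgctacttgcgcTGA
Smg6-201: gccttccttacgtgggcccaggtgggcTGA
Smg6-202: gatgatggagacattccctgcagtggcTGA
The window shown for Upf1-201, last coding bases and stop together, lies at chr8:70332623-70332652 on the minus strand. That for Smg5-201 lies at chr3:88361079-88361108 and that for Smg6-201 at chr11:75162921-75162950, both on the plus strand. The windows of Smg5-202 (chr3:88347568-88349111) and Smg6-202 (chr11:74946217-74990096) each cross an intron. In Upf1-201 the last junction followed the stop by 3 bases. In the main coding transcript of the other 8 genes it preceded the stop, by 10 bases in Upf2 to 298 bases in Upf3a. Transcripts annotated as targets of the pathway are listed for 3 of the 9 genes. The last junction lies 434 bases beyond the stop in Smg5-202, 1379 bases in Smg6-202 and 10397 bases in an Smg1 transcript of 61 exons. Their annotated coding parts, of 538, 1067 and 175 bases, begin at the first base of the transcript and are no whole number of codons. The start of translation is thus not annotated in them, and the codons before these stops cannot be counted. Smg5-201 and Smg6-201 hold 1017 and 1418 codons. The files count reads per gene, so that none of the values given here separates these transcripts.

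The 64 libraries held 15382522 to 52975732 gene reads each. The 8 stem cell markers, Pou5f1, Sox2 and Nanog among them, were all above 10 CPM in every whole-cell library, with a sum of 3814 to 6761 CPM, against sums of 1.78 to 12.7 CPM for 5 feeder cell markers, 1.18 to 4.86 for 4 endoderm markers and 6.45 to 21.7 for 4 mesoderm and neural markers. In bulk RNA of this kind, fewer cells with an mRNA and less of it per cell cannot be told apart. Replicates were passaged independently, and p-values measure the spread between these 6 replicates of 1 line. Tests of shares had no term for the pairs of replicates, which differ in labeling time. The whole-cell libraries of replicate 6 stood apart: the share of new RNA of the median gene was 0.378 at 60 min and 0.175 at 120 min, whereas it was 0.220 and 0.391 in replicate 5. Whole-cell half-lives, the order of levels and the comparison of 120 with 60 min are given with and without replicate 6.

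Per length of exon, Smg5 had the highest mRNA level of the 9 genes in whole cells and Smg1 the lowest. Smg5 was present at 32.8, 36.9 and 37.4 CPM per kilobase of exon (lowest, median and highest of 6 replicates), and Smg1, whose exons span 23984 bases, at 4.27, 5.50 and 8.03. The order in between was Upf1 (median 27.8), Smg8 (17.6), Upf3b (13.7), Upf2 (12.2), Upf3a (6.85), Smg9 (6.96) and Smg6 (6.12), set by their means on the log2 scale. Of the 8 pairs of neighbours, 4 differed in a two-sided exact permutation test over 6 replicates each. They were Smg5 and Upf1 (log2 difference 0.42, adjusted exact p = 0.0260), Upf1 and Smg8 (0.56, 0.0390), Smg8 and Upf3b (0.37, 0.0390), and Upf2 and Upf3a (0.78, 0.0173). Upf3b and Upf2, and any neighbours among Upf3a, Smg9, Smg6 and Smg1, were not called in this test, with adjusted exact p from 0.298 to 0.684. Neighbours were measured in the same cultures, and an exact test within replicates, added after the values had been seen, called 0 pairs, since 6 replicates allow no p below 0.0312. In it Smg5 exceeded Upf1, Upf1 Smg8 and Upf2 Upf3a in 6 of 6 replicates (adjusted p = 0.0833 each, the smallest reached), and Smg8 exceeded Upf3b and Upf3b Upf2 in 5 of 6 (adjusted exact p = 0.100 each). The order depends on the length used: with the longest transcript of each gene in place of all its exons, only 1 pair was called, Upf3b came above Smg8 and Smg1 above Smg6. Without replicate 6 the order and the count of 4 pairs were as before. Without replicate 3 (2 pairs called) or replicate 4 (0 pairs) Smg6 and not Smg1 was lowest, and without replicate 1, 2 or 5 the order held with 0 pairs called.

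**Figure D1:**
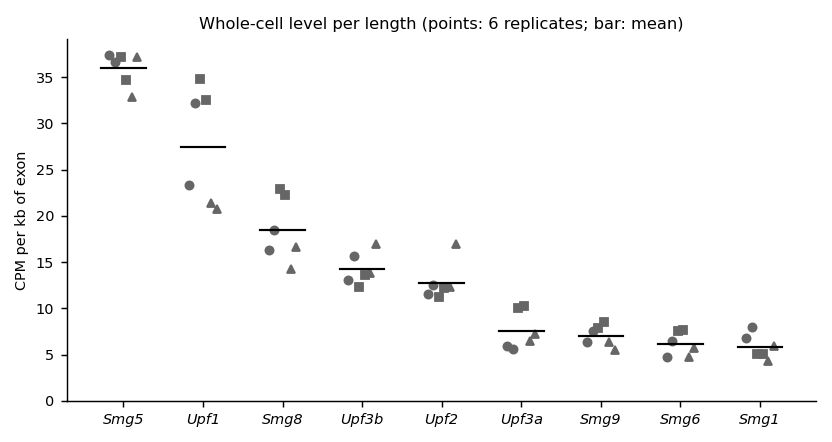
Whole-cell mRNA level of the 9 factors in CPM per kilobase of exon, with 1 point per replicate (circles 1 and 2, squares 3 and 4, triangles 5 and 6) and a bar for the mean. Smg5 lies between 32.8 and 37.4 in all 6 replicates and Smg1 between 4.27 and 8.03.

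Of the core factors, Upf1 was higher and Upf3a lower in the nucleus than in the cytosol. Reads were summed over the labeling times of a replicate and are given as normalised CPM, that is CPM after TMM scaling. Upf1 mRNA had a lowest, median and highest value of 132, 141 and 187 normalised CPM in the nucleus and of 70.6, 109 and 120 in the cytosol. All nuclear replicates lay above all cytosolic ones, and the level was 1.46-fold higher in the nucleus (log2 difference 0.54, SE 0.16, adjusted p = 0.00417). Upf3a, one of the paralogs that bind the exon junction complex, had 27.9, 29.2 and 39.5 normalised CPM in the nucleus and 52.0, 57.0 and 102 in the cytosol. Its replicates did not overlap either, with the nucleus lower (log2 difference -1.06, SE 0.19, adjusted p = 2.86e-05). Upf2, the bridge between Upf1 and Upf3, had 58.5, 59.6 and 67.8 in the nucleus and 70.1, 74.5 and 95.3 in the cytosol. Here too the nuclear replicates were all lower, by a log2 difference of -0.32 (SE 0.11, adjusted p = 0.0154) that did not reach the limit of 0.5 for a call. Upf3b, the X-linked paralog, had 49.0, 60.5 and 69.7 in the nucleus and 57.6, 64.6 and 92.1 in the cytosol, which overlapped (log2 difference -0.23, SE 0.15, adjusted p = 0.176).

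Of the Smg genes, Smg1 passed the test between nucleus and cytosol. The kinase mRNA had 105, 195 and 260 normalised CPM in the nucleus and 66.8, 97.4 and 136 in the cytosol. It was higher in the nucleus in 6 of 6 replicates although the ranges overlapped, since the nuclear values of replicates 5 and 6 lay below the cytosolic values of replicates 1 and 2 (log2 difference 0.81, SE 0.23, adjusted p = 0.00332). Its partners gave log2 differences of -0.17 (Smg8, adjusted p = 0.252) and 0.17 (Smg9, adjusted p = 0.201). Smg5 had 210, 298 and 343 normalised CPM in the nucleus and 210, 231 and 305 in the cytosol (log2 difference 0.22, adjusted p = 0.141), and Smg6 a log2 difference of 0.18 (adjusted p = 0.301). In all, 2 members were called higher and 1 lower in the nucleus, where 59.0% of 19040 genes were called (30.9% higher and 28.1% lower), and replicates did not overlap for 3 members and for 40.3% of all genes. A member count at this size is no result about the 9 genes as a group.

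At the membrane, 1 factor was called higher, Smg8, the inhibitory partner of the kinase. Its mRNA had 60.2, 83.8 and 91.0 normalised CPM in the membrane fraction against 35.7, 42.4 and 45.7 in the cytosol. All membrane replicates lay above all cytosolic ones, a 1.91-fold difference (log2 difference 0.93, SE 0.13, adjusted p = 1.58e-06). Upf3b moved the other way, with 27.2, 39.1 and 50.0 normalised CPM at the membrane and no overlap with the cytosol (log2 difference -0.86, SE 0.15, adjusted p = 2.79e-05), which placed it among the lowest 2.11% of genes. The other 7 factors had log2 differences from -0.47 (Upf1, adjusted p = 0.0217) to -0.15 (Smg9), none of them called by edgeR, whereas DESeq2 called Upf1 lower (-0.52, adjusted p = 0.00468). Of 19040 genes, 30.0% were called (21.1% higher and 8.87% lower), and 21.8% did not overlap. The 5 mRNAs of membrane and secreted proteins used as markers of the fraction, Hspa5 and Tfrc among them, were all higher at the membrane, with a median log2 difference of 4.26. They were also higher in the nucleus than in the cytosol (5 of 5, median 1.83), and their part in the nuclear levels of the factors was not tested. Of 4 nuclear RNA markers 3 were higher in the nucleus, and 4 of 4 cytosolic mRNA markers were lower.

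**Figure D2:**
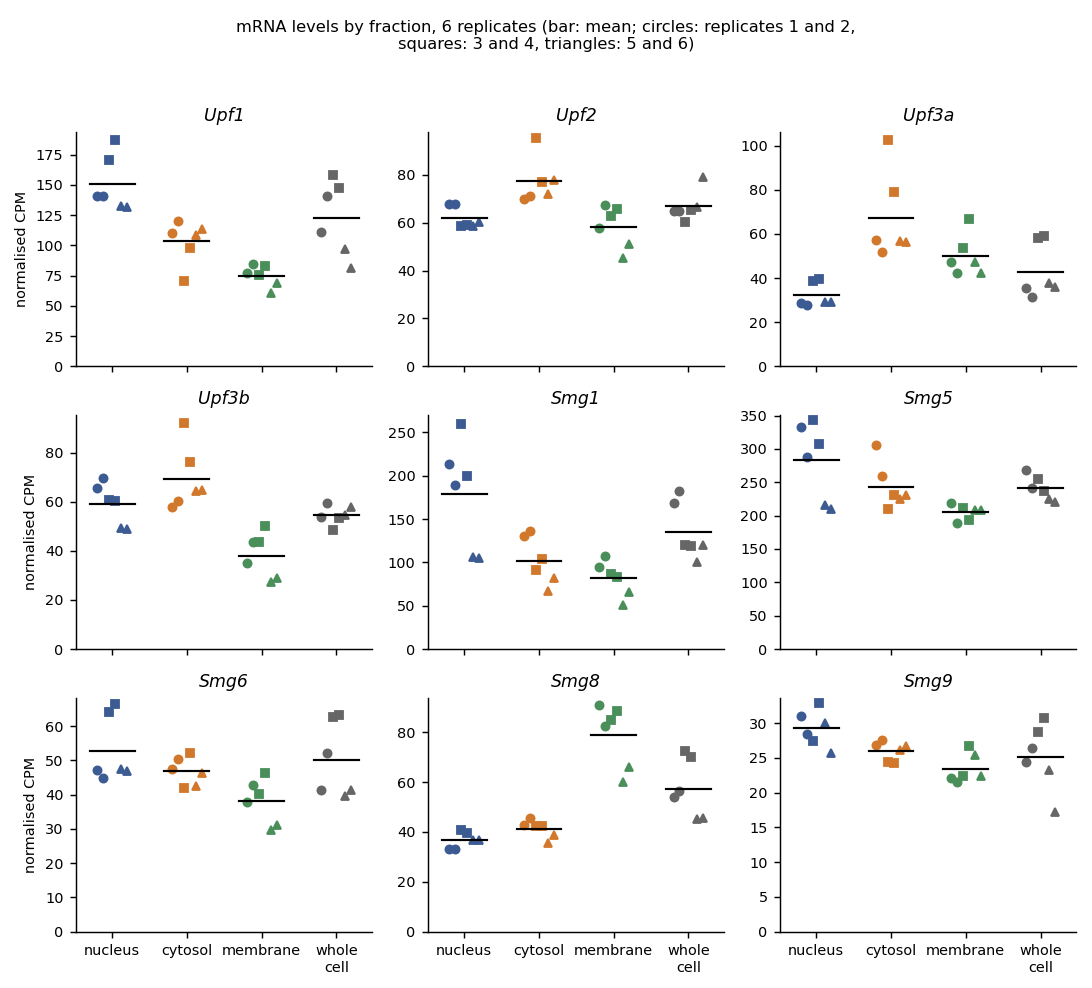
Normalised CPM of each factor in the 4 fractions, with 1 point per replicate (circles 1 and 2, squares 3 and 4, triangles 5 and 6) and a bar for the mean. Membrane points of Smg8 (60.2 to 91.0) lie above its cytosolic points (35.7 to 45.7), and nuclear points of Upf3a (27.9 to 39.5) below its cytosolic points (52.0 to 102).

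Differences between nucleus and cytosol depended on the scaling of the libraries. The median gene had a log2 difference of -0.0065 with TMM, 0.15 with DESeq2's size factors, 0.35 with library size alone and 0.27 without replicate 1 or without replicate 2, and the higher share of calls moved from 52.4% to 71.6% with library size alone. Relative to the median gene, over all alternatives, Upf1 lay between 0.29 and 1.00, Smg1 between 0.57 and 1.16 and Upf3a between -1.30 and -0.89, whereas Upf3b (-0.56 to 0.20), Smg5 (-0.030 to 0.48), Smg6 (-0.096 to 0.40) and Smg8 (-0.43 to 0.038) took both signs. With library size alone, 5 members were called higher (Upf1, Smg1, Smg5, Smg6 and Smg9) and 1 lower (Upf3a). Without replicate 3 or 4 Upf1 had a log2 difference of 0.42 or 0.46, under the limit for a call. Without replicate 1 or 2 Smg5 was called (0.52 each), and without replicate 2 Smg6 (0.53). For the membrane, where the median gene lay at -0.14, Smg8 was between 0.89 and 1.18 and Upf3b between -1.07 and -0.56 relative to it, and library size alone moved the higher share of calls from 70.4% to 35.3%, with 7 members called lower. Upf1 at the membrane was called in 8 of 16 alternatives, namely with DESeq2 or its size factors (-0.52 each), with library size alone (-0.80), without replicate 3 (-0.56), replicate 4 (-0.51) or replicate 5 (-0.53), within replicates 1 and 2 (-0.52) and within replicates 5 and 6 (-0.84).

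The paralogs Upf3a and Upf3b shifted against each other from nucleus to membrane. Per length of exon, the ratio of Upf3a to Upf3b was 0.272, 0.404 and 0.448 in the nucleus (lowest, median and highest of 6 replicates), 0.590, 0.639 and 0.758 in the cytosol and 0.657, 0.921 and 1.19 in the membrane fraction. The nuclear ratios lay below all cytosolic and membrane ratios. The ratio of the kinase Smg1 to its partner Smg8 went the other way, with 0.383, 0.720 and 0.866 in the nucleus, 0.251, 0.308 and 0.409 in the cytosol and 0.113, 0.135 and 0.175 at the membrane. Membrane ratios of this pair did not overlap with those of the cytosol. How many pairs of genes separate in this way was not counted. Of single genes, 40.3% did not overlap between nucleus and cytosol and 21.8% between membrane and cytosol. The ratios restate the levels given above and are no further test. Smg5 stood at 5.46, 6.06 and 8.53 times Smg6 in the nucleus and at 5.39, 6.18 and 7.80 times in the cytosol, which overlapped over nearly their whole range.

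Labeling times were compared within whole cells, to see whether levels of these mRNAs differed between shorter and longer labeling. Libraries without 4sU did not enter, so that an effect of 4sU itself was not tested. Between 60 and 20 min in replicates 3 and 4, log2 differences of the factors ran from -0.36 (Smg1, SE 0.30) to 0.26 (Upf3a, SE 0.17), and 0 of 9 were called by edgeR, as were 0% of 16858 genes, with 747 genes at an unadjusted p under 0.05 and 0 called by DESeq2. At 120 against 20 min, which shares the 20 min libraries with the first comparison, they ran from -0.11 (Upf3b) to 0.31 (Smg5, SE 0.14, adjusted p = 0.459). Again 0 of 9 were called, where 0.113% of genes were (0.0712% higher and 0.0415% lower). That is 19 genes, against 31 with a replicate block, 113 by DESeq2 and 0 without replicate 3 or without replicate 4. Between 120 and 60 min in replicates 5 and 6 they ran from -0.26 (Smg9, SE 0.25) to 0.42 (Smg1, SE 0.30), with 0 of 9 factors and 0% of genes called by edgeR or DESeq2, and 123 genes at an unadjusted p under 0.05 in edgeR. Without replicate 6 these values were -0.46 for Smg9 and 0.72 for Smg1, also not called. Libraries of 1 time varied too: at 20 min the 4 whole-cell libraries held, for Smg1, 105, 228, 138 and 157 CPM. The dose at 120 min in replicates 3 and 4 is the one the sources leave unclear.

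The share of new in total mRNA (converted over all T counts, divided by the conversion rate of the library) set Smg8 and Upf3b at opposite ends of the group in the nucleus and the cytosol. After 120 min, in replicates 5 and 6, Smg8 exons were 0.875 and 0.783 new in the nucleus and 0.903 and 0.849 in the cytosol. Upf3b exons were 0.337 and 0.311 new in the nucleus and 0.178 and 0.171 in the cytosol, and the median gene 0.441 ± 0.0244 (SD, n = 2) and 0.369 ± 0.00457. The other 7 factors lay between Upf3b and Smg8 in both fractions, with means of 0.361 (Upf3a) to 0.644 (Smg1) in the nucleus and 0.205 (Upf3a) to 0.543 (Upf2) in the cytosol. At 30 min, in replicates 1 and 2, Smg8 was already at 0.218 and 0.277 in the nucleus and 0.178 and 0.148 in the cytosol. In the cytosol at that time the median gene had 0.0300, Upf1 0.00758, Upf3b 0.00972 and Smg5 0.0163, in values from which no background was subtracted. In the whole-cell libraries labeled for 120 min Smg8 had 0.784 in replicate 5 and 0.358 in replicate 6, and Upf3b 0.320 and 0.129. At the membrane and in whole cells Upf3a and not Upf3b had the lower mean at 120 min, with 0.209 against 0.309 and 0.178 against 0.225. At the membrane this held in both replicates. In whole cells Upf3a had 0.198 in replicate 5, below Upf3b, and 0.157 in replicate 6, above it.

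**Figure D3:**
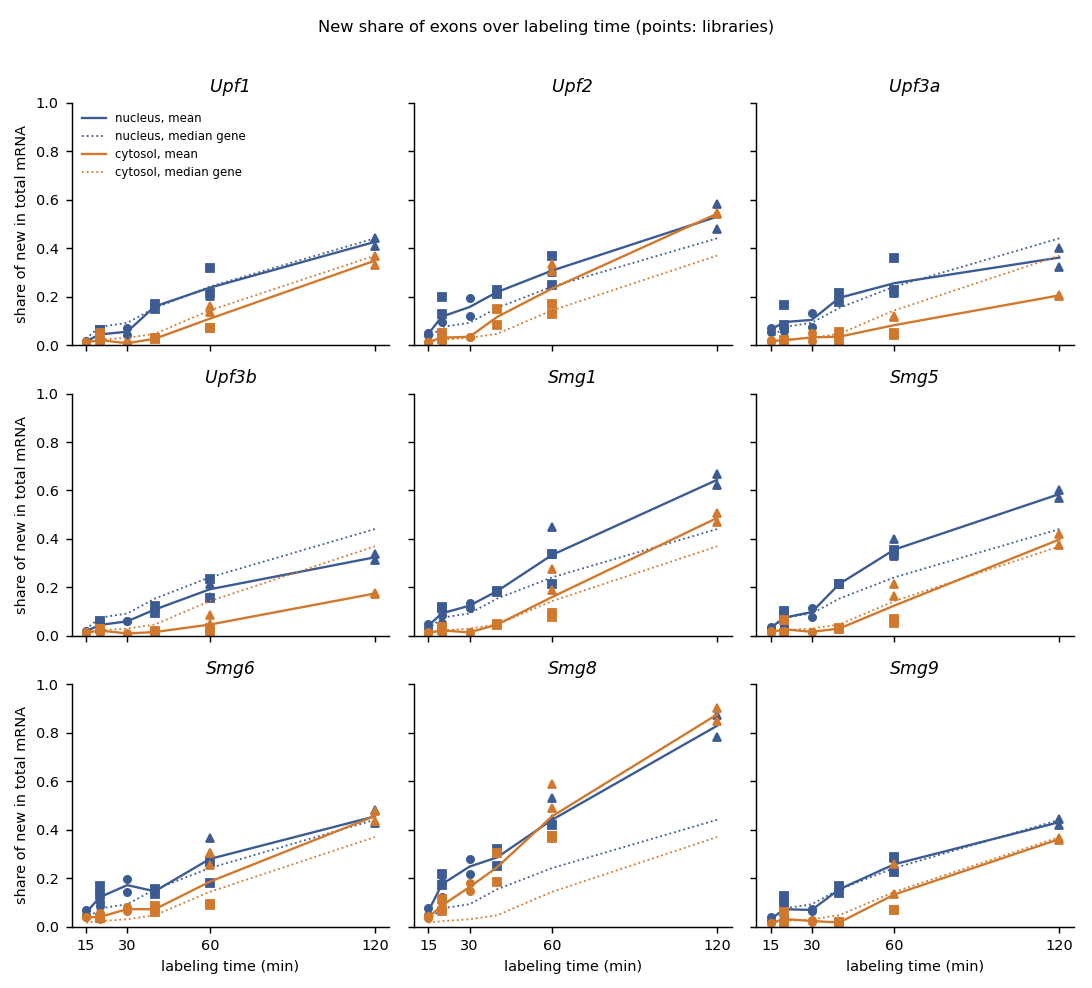
Share of new in total mRNA in exons against labeling time in min, 1 panel per factor, with 1 point per library, solid lines for means and dotted lines for the median gene (blue nucleus, orange cytosol). Smg8 reached 0.829 in the nucleus and 0.876 in the cytosol at 120 min, above both dotted lines, whereas Upf3b reached 0.324 and 0.175.

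Shares were compared with the median gene of the same library from 30 min on, and the mean of a replicate was tested with limma. Labeling times differ between the pairs of replicates, and the relative values still moved with the pair: for Upf1 in the cytosol they were -1.18 and -1.19 in replicates 1 and 2, -0.44 and -0.57 in replicates 3 and 4 and -0.19 and -0.27 in replicates 5 and 6. The test takes the 6 replicates as independent, so that where values move with the pair its SE and p-values may be too small. In the nucleus, Smg8 lay at 0.78, 0.93 and 1.35 on the log2 scale above the median gene (lowest, median and highest of 6 replicates), and all replicates were above it (mean 1.02, SE 0.12, adjusted p = 2.31e-04). Upf2 (0.46, SE 0.11, adjusted p = 0.00703), Smg1 (0.41, SE 0.10, adjusted p = 0.00959) and Smg5 (0.35, SE 0.12, adjusted p = 0.0306) were also higher, the last in 5 of 6 replicates. Upf3b was lower in 6 of 6 (mean -0.44, SE 0.098, adjusted p = 0.00552). Smg6 (0.32), Upf3a (0.065), Smg9 (-0.098) and Upf1 (-0.23) did not pass. So 4 members were higher and 1 lower, where 61.3% of 13248 genes were called (30.2% higher and 31.1% lower). The call of Smg5 was lost without any 1 of replicates 3, 4, 5 and 6, with log2 values from 0.29 to 0.35 and adjusted p from 0.0732 to 0.0903.

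In the cytosol, Smg8 was further above the median gene, with 1.29, 1.91 and 2.21 on the log2 scale. Every replicate was higher (mean 1.81, SE 0.16, adjusted p = 6.13e-05), a 3.52-fold share, which exceeded that of 93.7% of 12446 genes. Smg6, the endonuclease (0.56, SE 0.16, adjusted p = 0.0130), and Upf2 (0.54, SE 0.16, adjusted p = 0.0157) were higher in 6 of 6 replicates. Upf3b had -1.66, -1.10 and -0.95, below the median gene in every replicate (mean -1.21, SE 0.13, adjusted p = 1.01e-04). Upf1 was lower in 6 of 6 (-0.64, SE 0.17, adjusted p = 0.0110) and Smg5 in 5 of 6 (-0.37, SE 0.14, adjusted p = 0.0456). In replicates 1 and 2 the Upf1 shares at 30 min (0.00793 and 0.00723) lay under the pseudocount of 0.01. They were also under the Upf1 shares at 15 min (0.0114 and 0.0107), with no background subtracted. Upf3a (-0.49, adjusted p = 0.0631), Smg9 (-0.36, adjusted p = 0.0610) and Smg1 (-0.15) were not called. The counts of 3 higher and 3 lower members stand beside 69.3% of genes called (33.7% higher and 35.6% lower). Smg5 lost its call without any 1 of replicates 1 to 4 (-0.35 to -0.32), Upf3a gained one without replicate 2 (-0.70, adjusted p = 0.00355) and Smg9 without replicate 5 (-0.46, adjusted p = 0.0345). In the membrane fraction, where no test was planned, Smg8 (1.23 to 1.72), Upf2 (0.80 to 1.11) and Smg6 (0.66 to 1.56) were above the median gene in all 6 replicates, and Upf1 (-1.24 to -0.073) and Upf3a (-0.73 to -0.15) below it in all 6.

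**Figure D4:**
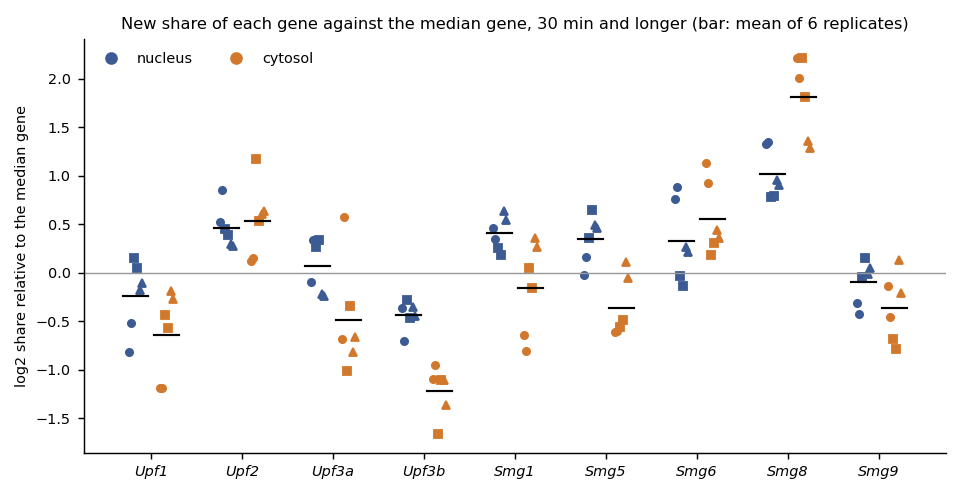
Share of new mRNA relative to the median gene of the same library (log2), mean over the libraries of at least 30 min, with 1 point per replicate (circles 1 and 2, squares 3 and 4, triangles 5 and 6) and a bar for the mean of 6. Smg8 lies above 0 in both fractions (0.78 to 1.35 in the nucleus, 1.29 to 2.21 in the cytosol) and Upf3b below 0 (-0.70 to -0.28 and -1.66 to -0.95).

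New RNA reached the cytosol at a lower share than in the nucleus for 8 of the 9 factors, measured within each culture. The difference was largest for Upf3b (log2 -1.78, SE 0.29, adjusted p = 5.16e-04) and Smg5 (-1.72, SE 0.31, adjusted p = 6.57e-04). Smg1 (-1.57), Upf3a (-1.56), Upf1 (-1.41) and Smg9 (-1.27) followed, each lower in 6 of 6 replicates, and then Upf2 (-0.93, lower in 5 of 6) and Smg6 (-0.77, lower in 6 of 6). Smg8 had -0.86, -0.17 and 0.13 over the replicates and did not pass (mean -0.21, SE 0.27, adjusted p = 0.500). The direction is shared with most genes: 62.9% of 12039 genes were called, 61.9% lower and 1.05% higher, with a median of -0.90. The calls rested on the pairing of fractions within a culture, since limma called 0 genes without the replicate block (3043 at an unadjusted p under 0.05), when adjusted p was 0.175 for Upf3b and 0.335 for Smg6. Within the pairs of replicates, the median gene differed by -1.14 in replicates 1 and 2, -1.26 in replicates 3 and 4 and -0.19 in replicates 5 and 6, which had the longest labeling. In the first and last pair limma called 0 genes (7045 and 5887 at an unadjusted p under 0.05), with Upf3b at -1.83 and -1.12 and Smg8 at 0.11 in the last. Upf2 lost its call without replicate 1 (-0.81) or 2 (-0.68), and Smg6 without replicate 1 (-0.77), 2 (-0.63), 3 (-0.66) or 4 (-0.77).

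Relative to the median gene of each culture, a centring added after the values had been seen, the factors split. Upf3b (-0.91), Smg5 (-0.85), Smg1 (-0.70), Upf3a (-0.69) and Upf1 (-0.54) had a larger drop from nucleus to cytosol than the median gene, with adjusted p from 0.00513 to 0.0243. Smg8 had a smaller one (0.66, SE 0.16, adjusted p = 0.0158). Smg9 (-0.40, adjusted p = 0.121), Smg6 (0.096) and Upf2 (-0.063) were not called. On this scale 4076 genes were called, 2128 higher and 1948 lower.

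Introns, which stand for pre-mRNA, carried a higher share of new RNA than exons in the nucleus for all 9 factors. Log2 differences ran from 1.05 (Upf3b, SE 0.13, adjusted p = 2.87e-05) over 1.28 (Smg5) to 1.85 (Smg6) and 1.94 (Upf1, SE 0.17, adjusted p = 1.7e-06), each in 6 of 6 replicates. This holds for nearly every gene, with 97.2% of 10458 genes called, 97.0% higher and 0.134% lower, and a median of 1.78. Without the replicate block 8 of 9 factors were called, and Upf3b was not (adjusted p = 0.0658). After 15 min of labeling, Smg8 introns were 0.801 and 0.922 new and Upf3b introns 0.0423 and 0.0310, while the median gene had 0.136 ± 0.0116 (SD, n = 2). At 60 min the Upf3b introns had 0.434, 0.348, 0.458 and 0.432 in the 4 nuclear libraries, and at 120 min 0.870 and 0.841. The introns of Upf2, Smg1 and Smg6 were 0.271, 0.236 and 0.278 new at 15 min and 0.912, 0.986 and 0.957 at 120 min. Mean shares of Smg8 introns lay above 1 from 20 to 60 min and reached 1.44 in 1 library of 30 min. At 120 min they were 0.804 and 0.791, the lowest mean (0.797) of the 9 factors and below the median gene (0.941). Values above 1 are possible because converted counts are divided by an estimated rate, which is the same for all genes of a library. In the library where Smg8 introns had 1.44, the median gene had 0.363. The cause of the high Smg8 values was not tested. Smg8 introns also had the fewest T counts, down to 1586 in a nuclear library.

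**Figure D5:**
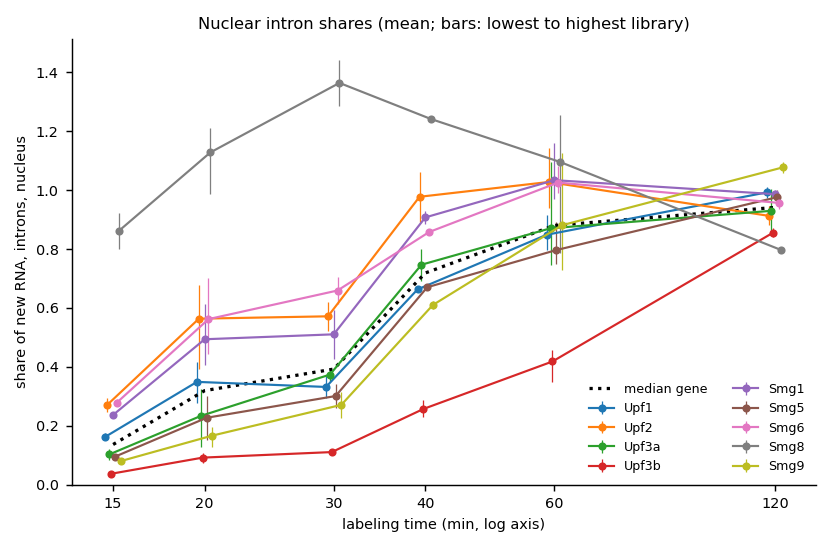
Share of new RNA in introns of each factor in the nucleus against labeling time in min (log axis), with points for means and bars from the lowest to the highest library. Smg8 starts at 0.861 at 15 min and Upf3b at 0.0366, with the median gene (dotted) at 0.136.

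The genes differ in length, from 9.043 kb for Smg8 (chr11:87077732-87086774) to 238.626 kb for Smg6 (chr11:74925823-75164448), and the nuclear share of new RNA was compared between the exons nearest to and farthest from the 3′ end. In Smg6, the last exon was at 0.0952 and 0.129 after 15 min, and the exon 233.7 kb upstream of it at 0.00714 and 0.00905. At 120 min the values were 0.582 and 0.653 against 0.178 and 0.213, so that the exons did not overlap at either time. In Upf2 (chr2:5951469-6056703), the last exon stood at a mean of 0.254 and the exon 94.991 kb upstream at 0.0752 after 30 min. After 120 min they stood at 0.559 and 0.515, and overlapped. In Smg8 the exon 7.263 kb upstream had a mean of 0.278 at 30 min and the last exon 0.189, which overlapped, and both had 0.784 to 0.856 at 120 min. An exon enters only with over 400 T counts in every nuclear library, and for Smg6 this left 12 exons.

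Apparent half-lives, from a single exponential with a delay of 5 min fitted to each replicate, put the shares on a scale of time and are a description without a test. In whole cells, Smg8 had 57.0, 108 and 153 min (lowest, median and highest of 6 replicates), Upf2 99.2, 170 and 210 min and Upf3b 211, 404 and 571 min. The median gene had 156, 310 and 337 min. Replicates of Smg8 and Upf3b did not overlap, and 13.0% of 12673 genes had a shorter median than Smg8. Smg6 (176 min), Smg5 (212 min), Smg1 (223 min), Smg9 (267 min), Upf1 (284 min) and Upf3a (321 min) lay between them. Without replicate 6 the medians were 112 min for Smg8, 174 for Upf2, 184 for Smg6, 224 for Smg5, 228 for Smg1, 290.3 for Smg9, 307 for Upf1, 317 for Upf3a, 422 for Upf3b and 313 for the median gene. In the cytosol Smg8 had 39.8, 85.8 and 111 min and Upf3b 411, 1047 and 1737 min, with the lowest values of Upf3b in replicates 5 and 6 (411 and 468 min). The median gene had 167, 403 and 549 min there. The curve was fitted to the cytosolic share alone, so that these values include the time before export. They are not the cytosolic half-lives that the study models, and no delay for elongation was fitted. Half-lives beyond the labeling time, at most 120 min and at most 30 min in replicates 1 and 2, are extrapolations, which holds for most values given here.

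Other genes of the pathway were described by lists, which stand beside all genes tested and were not tested as sets. Shares of all genes called in the same direction are those given above, 30.9% higher and 28.1% lower for nucleus against cytosol. Of 11 further factors of the pathway and of translation termination, 1 was higher and 5 lower in the nucleus than in the cytosol, with Nbas (log2 difference 2.73) and Etf1, a release factor (-1.61), as the extremes, and a median of -0.059. Of 9 exon junction complex genes, 0 were higher and 7 lower (median -1.02), with Rbm8a, a core subunit, at -1.62. Of 9 decapping and decay genes, 2 were higher and 3 lower, from Edc4 (0.93) to Lsm1 (-1.38). At the membrane, where 21.1% of all genes were higher and 8.87% lower, 1 of the 11 further factors was higher (Nbas, 2.54) and 3 lower, 1 of 9 junction genes was lower (Rnps1, -0.76) and 2 of 9 decay genes were lower (Ddx6, -0.68). From nucleus to cytosol the new share was lower for 61.9% of all genes and for 7 of 11 further factors, 7 of 9 junction genes (Casc3 -1.46) and 7 of 9 decay genes (Edc4 -1.94). Introns were higher than exons for 97.0% of all genes and for 10 of 10, 8 of 8 and 9 of 9 of those measured, so that these counts stand near the background.

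The 9 known targets of the pathway, including the snoRNA host genes Gas5 and Snhg12 and the stress factor Atf4, had more new RNA than the median gene. In the nucleus 9 of 9 were higher (median log2 1.60, Snhg12 2.38) and in the cytosol 8 of 9 (median 2.27, Snhg12 3.34), against 30.2% and 33.7% of all genes and medians of -0.050 and -0.054. Their levels were mixed, with 3 higher and 4 lower in the nucleus than in the cytosol (Snhg12 1.47, Atf4 -1.11), and 3 were lower at the membrane. The new share of 2 targets was lower in the cytosol than in the nucleus (Gas5 -1.87), and introns were higher than exons for 5 of 6. Of the 11 further factors, 4 had a higher and 6 a lower share in the nucleus, from Pnrc2 (1.31) to Nbas (-2.28), and 3 and 7 in the cytosol. Junction genes were split 3 and 3 in the nucleus and 1 and 3 in the cytosol, and decay genes 3 and 0 in the nucleus and 5 and 1 in the cytosol, with Dcp1a at 1.34 in the latter. Smg8 (1.02 and 1.81) had a value between the medians of the further factors (-1.03 and -0.82) and of the known targets in both fractions. So did every other member, apart from Upf3b in the cytosol (-1.21). The interval is wide: in the cytosol Upf3b, outside it, exceeded 11.0% of genes and Smg8, inside it, 93.7%. The share of all genes inside it was not counted, so that this position is no result about the members.

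Across the 64 libraries, levels of the factors followed each other to different degrees, which is given as a description since libraries share fractions and replicates. Upf1 and Smg6 were most alike (Pearson r = 0.94 of log2 CPM with a pseudocount of 1). Upf2 and Upf3b had r = 0.93, with 3 of 16092 genes closer to Upf2. Of the other pairs, Smg5 and Upf1 had 0.90, Smg9 and Upf1 0.90 and Smg1 and Smg5 0.87. Upf3a had 0.36 with Upf3b, its closest member, and Smg8 0.064 with Smg6, the highest of its values, and -0.42 with Upf3b. More genes were closer than the closest member in these cases than for Upf2. Of 16092 genes, 112 were closer to Upf1 than Smg6 was, 260 to Smg5 and 47 to Smg9 than Upf1 was. For Smg1 778 genes were closer than Smg5, for Upf3a 4900 were closer than Upf3b and for Smg8 4537 were closer than Smg6. Of all genes, Phrf1 (0.98), Adar (0.97) and Casc3 (0.97) were closest to Upf1, Top3a (0.96), Irak1 (0.96) and Cluh (0.96) to Smg5, and Hnrnpa2b1 (0.96), Tra2a (0.94) and Nfx1 (0.94) to Upf3b.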

How the data were processed

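The authors aligned paired reads of stranded poly(A) libraries with STAR (2.7.6) to GRCm38 with GENCODE M14 and deposited raw read counts per gene from HTSeq (0.11.1); these versions, with RSEM (1.3.3), are named in the submitters' processing notes. They deposited counts of T positions and T-to-C conversions per exon, gene and intron, known variants left out, the conversion rate of each library as a fraction, and a ratio, the converted share of T counts scaled by the rate. No background was subtracted from this ratio, and shares over 1 were kept. Reads carry no molecular identifiers.

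Here, counts were summed over the labeling times of a replicate and fraction and tested with edgeR 4.0.16 (R 4.3.3; filterByExpr, TMM, quasi-likelihood test, Benjamini-Hochberg adjustment, calls at adjusted p under 0.05 and absolute log2 over 0.5), all 24 sums in 1 fit. The 18 whole-cell libraries were fitted singly for labeling time. Shares, with a pseudocount of 0.01 and at least 400 T counts, were tested with limma 3.58.1 over 6 replicate means, with calls at adjusted p under 0.05. DESeq2 1.42.0 was an alternative. Lengths and transcripts came from GENCODE M21, to which 51633 of 51826 identifiers matched. The text names all 9 members, the called gene of largest difference per list and direction, and the 3 genes most like Upf1, Smg5 and Upf3b. Members and lists were chosen with earlier results of these data known. A gene that this rule picks is not reported here.

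Tested on simulated data, edgeR recovered 41 of 100 genes changed by 1 and 86 of 100 changed by 2 (log2) between nucleus and cytosol, with 2 false calls, over 19040 genes, and 44 and 81 between 60 and 20 min over 16858 genes. Over 12039 genes, limma recovered 20 of 100 shares changed by 0.5 and 94 of 100 changed by 1. The simulated shares had independent noise in each library and no difference between pairs of replicates. The data do differ between pairs, so this recovery may not hold for them. Fractions of 1 number come from 1 culture, and their deviations from the fraction mean correlated at 0.11 to 0.87. Libraries of 1 group differed beyond sampling noise in all 84 pairs (chi-square per degree of freedom at least 4.57). Upf1, Smg6, Smg8 and Smg1 overlap other genes, mostly on the other strand, and the strand setting of the counting is not given in the sources used here.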

Additional observations from a re-analysis of the deposited data

Results flagged for a closer look

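For levels and relative shares, 72 groups of 6 replicates were examined for a single value far from the others, and 2 were found, where chance gives about 3.6 (1 in 20). Upf2 in the cytosol had 95.3 normalised CPM in replicate 3 against 70.1 to 77.9 in the others, a gap of 0.656 of the whole range. In whole cells Upf2 had 79.3 in replicate 6 against 60.5 to 66.4, also a gap of 0.656, in the replicate whose whole-cell shares stood apart. The part of that library in the value was not tested. For 3 factors the share relative to the median gene was lower in the cytosol than in the nucleus, and the means had opposite signs: Smg5 from 0.35 to -0.37 (log2 difference -0.85, adjusted p = 0.00513), Smg1 from 0.41 to -0.15 (-0.70, adjusted p = 0.0215) and Upf3a from 0.065 to -0.49 (-0.69, adjusted p = 0.0243). Of these means, those of Upf3a in the nucleus (adjusted p = 0.671) and in the cytosol (adjusted p = 0.0631) and that of Smg1 in the cytosol (adjusted p = 0.473) did not pass the test against the median gene. The test is limma's over 6 replicate means after subtracting the median gene.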

How the results depend on the processing

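Of the values of single members under an alternative, 837 kept direction and side of the threshold, 62 lost a call, 38 gained one and 44 changed sign. Within-pair values and the centring on the median gene were chosen after seeing the data. Time and dose differ between pairs, and 2 libraries per time limit whole-cell comparisons. The replicate block changed no call of a member's level.

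Counts over all genes moved by over 1.5 times as follows. Membrane against cytosol, 5712 genes became 10126 with library size only. For 120 against 20 min, 19 became 31 with the replicate block, 113 with DESeq2, 227 with no filter and 0 without replicate 3 or 4. Without a filter, 60 against 20 min gave 42 and 120 against 60 min 49 in place of 0. Within replicates 1 and 2, where 2 values leave few degrees of freedom, relative shares gave 4420 calls in the nucleus (8116) and 4331 in the cytosol (8623). Cytosol against nucleus, 7577 became 0 without the replicate block, 0 within replicates 1 and 2 or 5 and 6, and 4076 after centring. Of the neighbours in level order, 4 pairs became 1 with the longest transcript, 0 with a replicate block (the exact test within replicates, chosen after seeing the data) and 0 to 4 with 1 replicate left out.

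Signs changed as follows (log2). Nucleus against cytosol, Upf2, Upf3b and Smg8 had 0.059, 0.16 and 0.19 with library size only, 0.052, 0.15 and 0.19 without a filter and 0.036, 0.14 and 0.16 with libraries singly. Smg8 ranged from -0.20 to 0.18 with 1 replicate left out (0.15 without replicate 1) and had 0.29 within replicates 3 and 4 and 0.17 within 5 and 6, and within 1 and 2 Upf3b had 0.19 and Smg6 -0.10. Membrane against cytosol, within replicates 3 and 4, Upf1 had 0.076, Smg5 0.047, Smg6 0.050 and Smg9 0.18. For 60 against 20 min, with 1 replicate left out, Upf2 ranged from -0.25 to 0.013, Smg6 from -0.27 to 0.084 and Smg8 from -0.0078 to 0.058. For 120 against 20 min, Upf1 ranged from -0.11 to 0.34, Upf2 from -0.25 to 0.14, Upf3b from -0.35 to 0.15, Smg8 from -0.050 to 0.11 and Smg9 from -0.068 to 0.33. For 120 against 60 min, Upf3a ranged from -0.40 to 0.17, Upf3b from -0.11 to 0.10, Smg5 from -0.051 to 0.026 and Smg8 from -0.099 to 0.62, Upf3b had -0.0012 with DESeq2 or its size factors, and Smg5 0.011 without a filter. Relative nuclear shares changed sign within replicates 3 and 4 for Upf1 (0.095), Smg6 (-0.092) and Smg9 (0.047), within 5 and 6 for Upf3a (-0.23) and Smg9 (0.018), and the cytosolic one of Smg1 within 5 and 6 (0.27). Cytosol against nucleus, Upf2 (0.044) and Smg8 (0.11) changed within replicates 5 and 6, and Smg6 (0.096) and Smg8 (0.66) after centring. The cause was not tested for any of these.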

Other observations

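The share of T counts that fell in introns was counted for each factor and fraction. In the nucleus it was 38.0%, 56.6% and 63.6% for Upf3a (lowest, median and highest of 6 replicates) and 6.17%, 10.1% and 12.2% for Smg8, against 18.8%, 32.1% and 36.8% for the median gene. Smg1 (median 16.2%) and Upf1 (22.6%) were also below the median gene, and Upf3b (49.2%), Smg6 (47.4%), Smg9 (45.5%) and Upf2 (42.2%) above it. In the cytosol the medians were 13.8% for Upf3a, 15.8% for Upf3b and 3.49% for Smg8, against 9.15% for the median gene. By median, introns of Upf2, Upf3a, Upf3b and Smg6 made up more than 10% of T counts in the cytosolic and the membrane fraction. These values are a description without a test.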
